A study of Mus musculus with 30 samples.

Results

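SB203580, a pyridinyl imidazole that blocks the kinase activity of p38α and p38β, was tested for its effect on the early mRNA response of wild type mouse embryonic fibroblasts (MEFs) to the cytokine TNFα. The comparison set the 2 arrays of MEFs given SB203580 and then TNFα against the 2 arrays of MEFs given TNFα alone, that is 4 of the 30 arrays of the series, paired by replicate number. Of 21689 named genes on the array, 14367 were measured on all 4 arrays, and both directions of difference were read over all of them.

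Both groups were immortalised wild type MEFs grown with serum and stimulated with 100 ng/ml TNFα for 45 min. For SB203580 the sample titles give 10 mM and 2 h, whereas the labels' treatment protocol and the study's methods give 10 µM for 30 min before the stimulus, so the dose and time are not settled by the labels. On every array the treated RNA was labelled with Cy5 and hybridised against one Cy3 reference, RNA pooled from 2 cultures of untreated wild type MEFs. Dyes were not swapped, and the pool drops out of the difference between the groups. Values below are log2 ratios to that pool unless a difference is named, and a difference is SB203580 with TNFα minus TNFα alone. Where groups of 2 arrays are said not to overlap, this describes the values and is not evidence of a difference. The share of all genes whose groups do not overlap is not given here. Arrays of SB203580 alone, of anisomycin (25 ng/ml, 45 min) and NaCl (100 mM, 45 min) with and without SB203580, and of p38α-/- MEFs without stress or with TNFα served as comparators, with 2 arrays each.

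TNFα binding to its receptor activates the IκB kinases, which free NF-κB to enter the nucleus, and in parallel the stress kinases JNK and p38. Active p38 phosphorylates transcription factors directly or through the kinases MSK1 and MSK2, and through MK2 it counteracts the decay of mRNAs with AU-rich elements (AREs). Chemokines, colony stimulating factors, feedback inhibitors of NF-κB and immediate early transcription factors are the best known early TNFα genes of fibroblasts.

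The promoters of 5 genes on which the results turn are shown, each as the 250 bases before the start of the gene in RefSeq (GRCm38.p6), written 5′ to 3′ on the strand of the gene. They are Ch25h at chr19:34475149-34475398 (minus strand), Ccl20 at chr1:83116516-83116765 (plus strand), Cxcl10 at chr5:92348890-92349139 (minus strand), Tnfaip3 at chr10:19015411-19015660 (minus strand) and Fos at chr12:85473640-85473889 (plus strand). Tnfaip3 has 2 starts in the table and the window of the one farther upstream is shown. Ch25h, Ccl20, Cxcl10 and Tnfaip3 had differences from −1.41 to −0.61 with SB203580, and Fos had one of −0.12. Capitals mark matches on either strand to the consensus decamer of NF-κB, to the AP-1 motif TGANTCA or to the cAMP response element TGACGTCA.
Ch25h: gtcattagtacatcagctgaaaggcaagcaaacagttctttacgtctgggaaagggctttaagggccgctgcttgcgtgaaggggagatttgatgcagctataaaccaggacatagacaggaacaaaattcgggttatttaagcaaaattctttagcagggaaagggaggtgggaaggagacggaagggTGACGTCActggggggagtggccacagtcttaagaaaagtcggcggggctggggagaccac
Ccl20: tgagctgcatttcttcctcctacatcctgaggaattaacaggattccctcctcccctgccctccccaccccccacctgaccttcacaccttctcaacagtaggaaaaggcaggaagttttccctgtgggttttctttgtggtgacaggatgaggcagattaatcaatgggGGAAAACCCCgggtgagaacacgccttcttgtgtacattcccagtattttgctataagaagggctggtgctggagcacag
Cxcl10: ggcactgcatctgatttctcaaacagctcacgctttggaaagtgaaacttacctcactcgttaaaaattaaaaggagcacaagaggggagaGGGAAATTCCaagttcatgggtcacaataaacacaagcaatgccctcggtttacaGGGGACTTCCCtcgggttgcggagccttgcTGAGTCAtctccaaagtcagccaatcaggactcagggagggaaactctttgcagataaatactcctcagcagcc
Tnfaip3: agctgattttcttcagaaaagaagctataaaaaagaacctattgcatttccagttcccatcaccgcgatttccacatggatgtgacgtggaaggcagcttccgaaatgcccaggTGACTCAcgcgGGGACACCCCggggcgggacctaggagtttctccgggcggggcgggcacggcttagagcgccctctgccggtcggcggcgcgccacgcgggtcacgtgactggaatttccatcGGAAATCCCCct
Fos: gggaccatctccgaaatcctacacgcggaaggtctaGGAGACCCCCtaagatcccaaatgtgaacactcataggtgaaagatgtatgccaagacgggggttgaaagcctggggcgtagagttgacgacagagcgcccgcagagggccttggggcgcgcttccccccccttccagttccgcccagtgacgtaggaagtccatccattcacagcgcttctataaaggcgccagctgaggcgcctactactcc

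Ch25h held the cAMP response element from −61 to −54 and neither of the other motifs. Ccl20 held 1 NF-κB decamer, on the antisense strand from −80 to −71. Cxcl10 held NF-κB decamers from −159 to −150, from −104 to −95 and from −103 to −94, the last pair overlapping, and an AP-1 motif from −74 to −68. Tnfaip3 held an AP-1 motif from −136 to −130 and NF-κB decamers from −125 to −116 and, antisense, from −12 to −3. Fos held 1 antisense NF-κB decamer from −214 to −205. Over 32851 promoter windows of this length, 7.25% held the NF-κB decamer, 6.75% the AP-1 motif and 1.55% the cAMP response element. A match is a description of the letters and not evidence of binding.

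The 4 arrays were alike in signal. The share of probes well above background in Cy5 was 93.0% to 94.8% and the median Cy5 intensity was 289.6 to 351.8, while the spots set aside as outliers ranged from 7.26% to 35.8%. Replicates of a treatment correlated less (Pearson r over genes of 0.561 for TNFα and 0.588 for SB203580 with TNFα) than the arrays of a pair did across treatments (0.790 in pair 1 and 0.752 in pair 2). The labels name no separate cultures for the replicates, although the study's methods speak of 2 independent experiments. The p-values therefore measure the spread between arrays. That spread was estimated in limma over all 22 wild type arrays and not only these 4. With only these 4 arrays fitted in limma, no gene passed the threshold for adjusted p-values given below, and Ch25h had an adjusted p of 0.714. Within wild type MEFs the replicate number also followed the day of scanning.

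With SB203580 most genes of TNFα-treated MEFs kept close to their level with TNFα alone. Of the 14367 genes, 13234 (92.1%) differed by less than 1.5-fold in both pairs. Only Ch25h passed an adjusted p of 0.05 in limma (0.00696% of genes tested), with a lower level, and no gene passed with a higher one. At an unadjusted p under 0.05, 201 genes (1.4%) were lower and 188 (1.31%) higher. The direction was the same in both pairs for 3120 lower genes (21.7%) and 4921 higher genes (34.3%), with a median difference over all genes of 0.03.

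Differences of at least 2-fold in the same direction in both pairs were counted for 8 genes. The 5 lower ones (0.0348%) were Ch25h, the metalloprotease gene Adamts1, the sodium/proton exchanger gene Slc9a3, the homeobox gene Gsc and the defensin gene Defb12. The 3 higher ones (0.0209%) were Arrdc3, Cbx8 and B130011D17Rik. Of the 5, only Ch25h and Adamts1 were well above background on all 4 arrays. Slc9a3 and Gsc were so on 1 TNFα array and on no array of SB203580 with TNFα, Defb12 on none of the 4, and B130011D17Rik on 1 array of SB203580 with TNFα, so that the sizes of these 4 folds are not measured. With only probes well above background the counts were 2 lower and 2 higher. A further 4 genes moved 2-fold in opposite directions in the pairs. The differences of the pairs had SDs of 0.282 and 0.271 and a correlation of 0.106 across genes, which are not independent replicates.

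**Figure D1:**
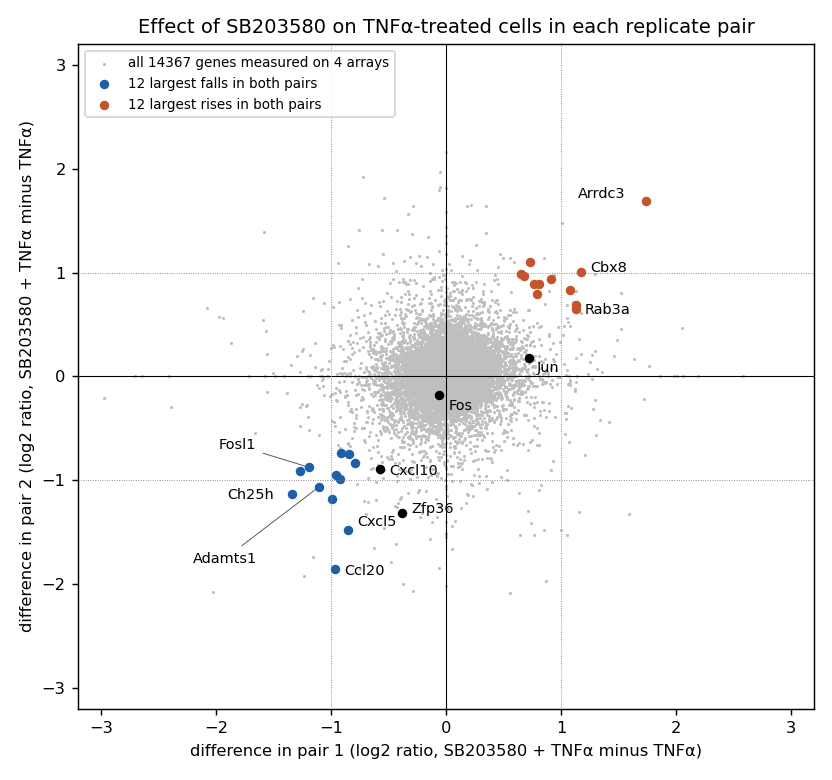
Difference of log2 ratio (SB203580 with TNFα minus TNFα alone) in replicate pair 1 (x axis) against replicate pair 2 (y axis) for all 14367 genes, with dotted lines at 2-fold. The 12 genes with the largest lower (blue) and higher (red) values in both pairs are coloured, Ch25h lies past 2-fold in both, and the 214 genes (1.49%) at exactly 0 in a pair are those whose ratios were set by surrogates for dim signals.

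Ch25h encodes cholesterol 25-hydroxylase, which makes the oxysterol 25-hydroxycholesterol. Its log2 ratio was 2.25 and 1.6 on the TNFα arrays and 0.91 and 0.47 with SB203580, and the groups did not overlap. On the arrays of SB203580 alone it was 0.02 and −0.19. The paired differences were −1.34 and −1.13. The limma estimate was −1.23 ± 0.16 (SE, 95% interval −1.57 to −0.90, adjusted p = 0.0327), which leaves 42.5% of the level with TNFα alone. With anisomycin alone Ch25h lay near the pool (0.06 and −0.08), and there the paired differences with SB203580 were −0.05 and 0.03. In p38α-/- MEFs Ch25h stood above the unstressed knockout by 0.60 and 0.83 with TNFα. The call was lost without TNFα array 1 (adjusted p = 0.228), without SB203580 with TNFα array 2 (0.331), without either whole pair (0.104 for each) and without the replicate block (0.264), and its direction held in all of these. In bulk RNA, fewer cells with a transcript and less transcript per cell cannot be told apart.

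The chemokines with the highest TNFα ratios had lower ratios with SB203580 that still lay far above the untreated pool. Genes picked as high on the TNFα arrays tend to be lower on any other array, so that choice is no evidence of a direction. Of 21 chemokine genes on the array 16 were measured, and 8 of them were lower and 2 higher in both pairs, where 21.7% and 34.3% of all genes were. At an unadjusted p under 0.05, 6 were lower and 0 higher (background 1.4% and 1.31%), no member passed the adjusted threshold, and the median difference was −0.19 against 0.03 over all genes. Members near the pool on the TNFα arrays included Ccl8 at −0.10 and −0.08 and the eotaxin gene Ccl11 at −0.10 and 0.09.

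Ccl20, which draws CCR6-bearing lymphocytes and dendritic cells, had the highest TNFα ratios of the list at 7.18 and 6.96. With SB203580 it read 6.21 and 5.10, and the groups did not overlap. The difference was −1.41 ± 0.29 (SE, unadjusted p = 0.000305, adjusted p = 0.707 in limma), or 37.5% of the TNFα level. Cxcl10, a ligand of CXCR3 on T cells, read 6.94 and 6.34 with TNFα and 6.37 and 5.44 with SB203580 as well, a difference of −0.73 ± 0.22 (SE) between groups that overlapped slightly. On the arrays of SB203580 alone, Ccl20 read 0.72 and 0.26 and Cxcl10 read 1.82 and 0.82.

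The neutrophil-attracting CXCR2 ligands shared the direction. Cxcl5 read 4.44 and 4.47 with TNFα and 3.59 and 3.0 with SB203580, a difference of −1.16 ± 0.39 (SE) with no overlap. Cxcl2 read 2.16 and 0.95 against 0.95 and 0.56, a difference of −0.80 in which the higher SB203580 array equalled the lower TNFα array to 2 decimals. Cxcl3, listed on the array as Gm1960, read 2.05 and 1.29 against 1.41 and 0.60, a difference of −0.66 with overlapping groups. Unadjusted p-values were 0.0106 for Cxcl5, 0.0137 for Cxcl2, 0.0158 for Cxcl3 and 0.00573 for Cxcl10.

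Several chemokine probes were marked as outlier spots and are known only with those spots kept. Read that way, Cxcl1, a further CXCR2 ligand, was at 3.27 and 2.44 with TNFα and at 1.88 and 1.84 with SB203580, with no overlap and a difference of −1.0 ± 0.19 (SE, adjusted p = 0.365). The monocyte chemoattractant Ccl2 read 4.29 and 3.51 against 3.36 and 3.17, a difference of −0.64. Ccl7, a relative of Ccl2, read 4.1 and 3.2 against 3.19 and 2.69, a difference of −0.71. Cxcl16 had a difference of −0.41 (unadjusted p = 0.00748), but rested on different probes on different arrays and gave −0.17 with the same probes throughout.

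**Figure D2:**
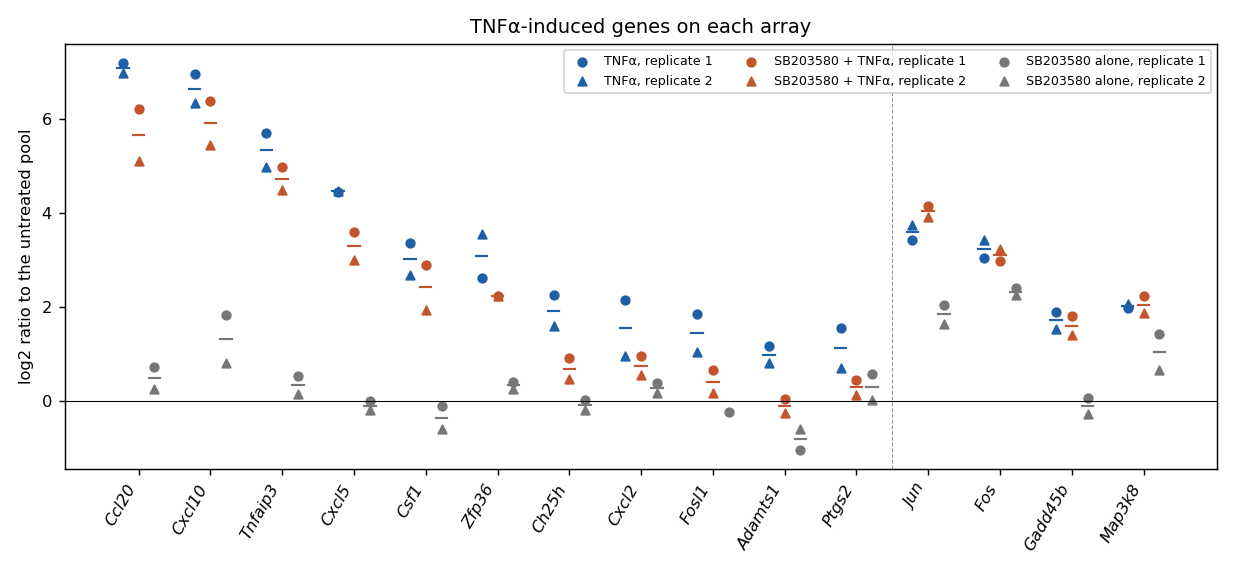
Log2 ratio to the untreated pool (y axis) on each array for 15 genes, with TNFα alone in blue, SB203580 with TNFα in red and SB203580 alone in grey, circles for replicate 1, triangles for replicate 2 and bars for group means. Left of the dashed line stand genes whose mean was lower with SB203580, from Ccl20 at 7.18 and 6.96 against 6.21 and 5.10 to Ptgs2, and right of it Jun, Fos, Gadd45b and Map3k8, whose mean differences lay between −0.12 and 0.45.

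Among cytokines and colony stimulating factors, 11 of 17 were measured, 6 were lower and 1 higher in both pairs, beside 21.7% and 34.3% of all genes, and the median difference was −0.19. Of all 17, 8 were lower and 1 higher with outlier spots kept, beside 3899 and 7687 of 21689 genes, with a median of −0.073. None passed the adjusted threshold. Tslp, an epithelial and stromal cytokine that acts on dendritic cells, read 1.66 and 1.24 with TNFα and 0.84 and 0.65 with SB203580, with no overlap and a difference of −0.70 ± 0.20 (SE, unadjusted p = 0.00333). Csf1, the macrophage growth factor, read 3.37 and 2.67 against 2.9 and 1.94, a difference of −0.60 with an unadjusted p of 0.115 and overlapping groups. Spp1, which encodes osteopontin, read 1.48 and 1.43 against 1.11 and 0.76 and did not overlap. Il6 and Csf2 stayed near the pool on the TNFα arrays, at −0.20 and −0.27 for Il6 and at 0.27 and 0.08 for Csf2. Tnf itself, with outlier spots kept, read 0.60 and 0.29 with TNFα and −0.03 and −0.02 with SB203580.

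The NF-κB system was represented by 9 measured genes of 17 on the array. Of these 5 were lower and 0 higher in both pairs, beside 21.7% and 34.3% of all genes, with a median of −0.13. Tnfaip3, which encodes the ubiquitin-editing feedback inhibitor A20, was among the genes with the highest TNFα ratios. It read 5.69 and 4.98 with TNFα and 4.98 and 4.48 with SB203580, a difference of −0.61 ± 0.24 (SE, unadjusted p = 0.0253), or 65.5% of the TNFα level. Nfkb1, which encodes the p105 precursor of p50, read 1.42 and 0.82 against 0.74 and 0.42, with no overlap and a difference of −0.54. With outlier spots kept, Nfkbiz, a nuclear IκB protein, read 3.40 and 3.43 against 2.91 and 2.81, while the classical inhibitor Nfkbia read 0.65 and 0.67 against 0.72 and 0.66, a difference of 0.02 with a 95% interval of −0.27 to 0.31.

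ARE-binding factors take part in the stabilisation or the decay of mRNAs, and 5 of 10 were measured. All 5 were lower in both pairs, where 21.7% of all genes were, with a median of −0.09. The count came to 3 when every gene was read by the same probes, beside 3005 of 14176 genes. With outlier spots kept 3 of 10 were lower and 1 higher, beside 3899 and 7687 of 21689 genes, with a median of −0.0037. Zfp36, which encodes tristetraprolin, read 2.62 and 3.55 with TNFα and 2.24 and 2.24 with SB203580, a difference of −0.85 that was −0.64 with the same probes. Its relative Zfp36l1 read 1.65 and 1.80 against 1.06 and 0.95, with no overlap and a difference of −0.72 ± 0.17 (SE, unadjusted p = 0.000837). The other 3, Zfp36l2, Elavl1 and Tial1, differed by −0.09, −0.04 and −0.05. Of 12 ARE-bearing transcripts that the study set beside an earlier screen of p38-stabilised mRNAs, 9 were measured. Of these 6 were lower and 1 higher in both pairs, beside 21.7% and 34.3% of all genes, and the median was −0.60. That list was drawn up from these samples and is not independent evidence of its direction.

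Genes of adhesion, clotting and the vessel wall lay mostly on the lower side. Of 13 measured genes 12 were lower and 0 higher in both pairs, against 21.7% and 34.3% of all genes, with a median of −0.19. When read by the same probes 10 of 12 were lower, beside 3005 of 14176 genes. F3, the tissue factor that starts coagulation, read 1.69 and 1.34 with TNFα and 1.13 and 0.57 with SB203580, without overlap and with a difference of −0.67. Ptgs2, the inducible prostaglandin synthase COX-2, read 1.56 and 0.70 against 0.45 and 0.14, with no overlap and a difference of −0.84 ± 0.35 (SE, unadjusted p = 0.034).

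The endothelial adhesion genes had smaller differences. Sele, which encodes E-selectin, read 2.29 and 2.20 with TNFα and 2.16 and 2.01 with SB203580, a difference of −0.16 with a 95% interval of −0.93 to 0.62. Icam1 read 0.73 and 0.29 against 0.50 and −0.20. For Vcam1 the means of the probes left on each array were 2.78 and 0.75 against 1.93 and 2.00, a mean difference of 0.20. On TNFα array 2 only the probe with the lowest TNFα ratios (0.85 and 0.75) was left. That probe alone gave the difference of −0.04 with the same probes. With outlier spots kept, the other probes differed by −0.93 and −0.27, and by −0.64 and −0.70, in the pairs, and the gene differed by −0.44.

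Matrix genes and secreted factors included some of the largest differences. Adamts1, a secreted metalloprotease that cleaves proteoglycans, read 1.16 and 0.80 with TNFα and 0.06 and −0.26 with SB203580, with paired differences of −1.11 and −1.06. SB203580 alone also put Adamts1 below the pool, at −1.04 and −0.58. Edn1, the vasoconstrictor endothelin-1, read 1.94 and 2.22 against 1.61 and 1.1, a difference of −0.73 (unadjusted p = 0.0498). Hs3st1, a heparan sulphate sulfotransferase, read 1.28 and 1.47 against 0.36 and 0.48, without overlap, for a difference of −0.96 ± 0.20 (SE, adjusted p = 0.707). With outlier spots kept, the matricellular genes Cyr61 (1.62 and 1.74 against 0.98 and 0.31) and Ctgf (0.93 and 0.45 against 0.22 and −0.84) had differences of −1.04 and −1.0. Serum response factor and YAP targets as a list held 8 measured genes, 4 lower and 3 higher in both pairs, beside 21.7% and 34.3% of all genes. Of the 16 on the array, 7 were lower and 2 higher with outlier spots kept, beside 3899 and 7687 of 21689 genes. On that reading 5 were lower at an unadjusted p under 0.05 in limma, beside 274 of 21689 genes.

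**Figure D3:**
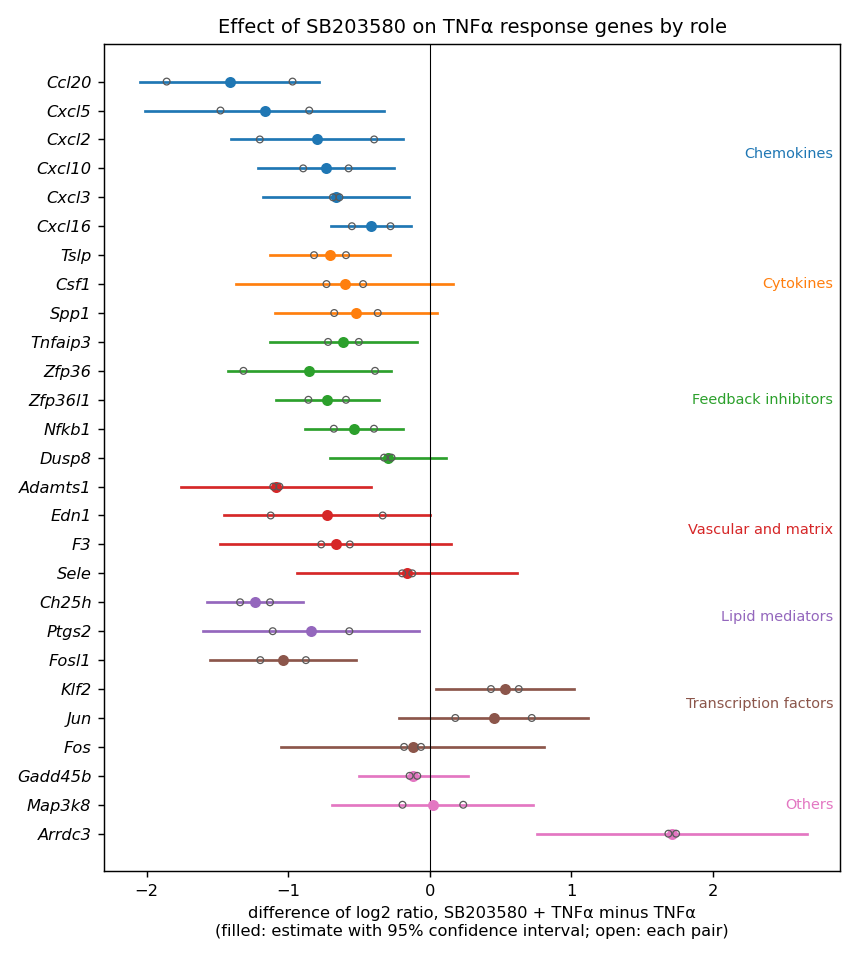
Difference of log2 ratio (SB203580 with TNFα minus TNFα alone, x axis) for 27 genes grouped by role, with filled points for the limma estimate, lines for its 95% confidence interval and open points for each pair. The chemokines, cytokines and feedback inhibitors shown lie left of 0 and are a choice from their lists. In the lists 2 of 16 measured chemokines, 1 of 11 cytokines and 3 of 10 MAPK feedback genes were higher in both pairs. Ch25h has the interval −1.57 to −0.90, and Jun, Map3k8 and Arrdc3 lie right of 0.

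Immediate early transcription factors lay on both sides, with more of them lower than higher. Of 17 measured genes of 29 on the array, 10 were lower and 5 higher in both pairs, beside 21.7% and 34.3% of all genes. Their median was −0.12. With outlier spots kept 17 of 29 were lower and 7 higher, beside 3899 and 7687 of 21689 genes. On that reading 8 were lower and 1 higher at an unadjusted p under 0.05 in limma, beside 274 and 254 of 21689 genes. Fosl1, which encodes the AP-1 subunit Fra-1, read 1.86 and 1.04 with TNFα and 0.66 and 0.17 with SB203580, with no overlap and a difference of −1.04 ± 0.22 (SE, unadjusted p = 0.00162). With outlier spots kept, Atf3 read 2.02 and 1.33 against 1.07 and 0.44 (difference −0.92, adjusted p = 0.538) and Maff, a small Maf protein, had a difference of −0.62. Btg2, an antiproliferative gene, read 1.58 and 3.35 against 1.15 and 1.74, and its difference of −1.03 was −0.61 with the same probes. Myc read 3.33 and 1.06 against 1.67 and 0.52, and its difference of −1.10 was −0.92 with the same probes and −0.58 with outlier spots kept. Btg1 had a difference of −0.81 that was −0.24 with the same probes.

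Jun and Fos, the classical AP-1 pair, stayed near or above their TNFα levels. Jun read 3.43 and 3.74 with TNFα and 4.15 and 3.92 with SB203580, a difference of 0.45 with a 95% interval of −0.22 to 1.12. Fos read 3.03 and 3.42 against 2.97 and 3.24, a difference of −0.12 with an interval of −1.05 to 0.81. SB203580 alone gave both genes ratios well above the pool, at 2.05 and 1.64 for Jun and 2.40 and 2.25 for Fos. Klf2, a zinc finger factor, read 0.42 and 0.68 against 0.85 and 1.31, a difference of 0.53 (unadjusted p = 0.036, adjusted p = 1). With outlier spots kept, Egr1 differed by 0.12, Irf1 by −0.03 and Ier3 by −0.15. The survival gene Gadd45b and the kinase gene Map3k8 differed by −0.12 and 0.02.

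The p38 cascade and the TNF receptor pathway had medians close to that of all genes. Over all genes 21.7% were lower and 34.3% higher in both pairs. MAP kinase phosphatases and other feedback genes counted 10 measured, 6 lower and 3 higher in both pairs, with a median of −0.07. Dusp8, a phosphatase of JNK and p38, read 1.91 and 1.40 with TNFα and 1.58 and 1.13 with SB203580, a difference of −0.30 with overlapping groups. Dusp1, with outlier spots kept, read 1.39 and 1.67 against 1.84 and 1.97 and had a difference of 0.37 (95% interval −0.16 to 0.90). Of 13 measured p38 pathway genes 2 were lower and 4 higher, with a median of 0.02, and of 11 receptor pathway genes 2 were lower and 4 higher, with a median of 0.00. These counts with outlier spots kept were 4 lower and 12 higher of 23, and 3 lower and 9 higher of 19. Over all 21689 genes 3899 were lower and 7687 higher on that reading. Mapk14, the p38α gene, read 0.34 and 0.03 against 0.39 and 0.23 with outlier spots kept, and −0.94 and −1.98 in unstressed p38α-/- MEFs.

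The remaining lists lay close to the median of all genes, apart from the ribosomal protein genes. Interferon response and antigen presentation counted 18 measured genes, 8 lower and 3 higher in both pairs, beside 21.7% and 34.3% of all genes. The median of this list was −0.07. Its member H2-K1, a class I histocompatibility gene, read 2.09 and 1.41 against 1.57 and 1.1, and Tap1, the peptide transporter, 1.26 and 0.65 against 0.67 and 0.42. Pmaip1, the BH3-only protein Noxa, read 1.86 and 1.82 against 1.29 and 1.27, with no overlap and an unadjusted p of 0.093. Lists of TGF-β feedback, sterol synthesis, p53 target, apoptosis, aryl hydrocarbon receptor, Socs, stress and heat shock, and reference genes had medians from −0.06 to 0.09 and no member past the adjusted threshold. All 7 measured ribosomal protein genes were higher in both pairs, by a median of 0.19, where 34.3% of all genes were. With outlier spots kept 20 of 20 were higher, beside 7687 of 21689 genes.

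**Figure D4:**
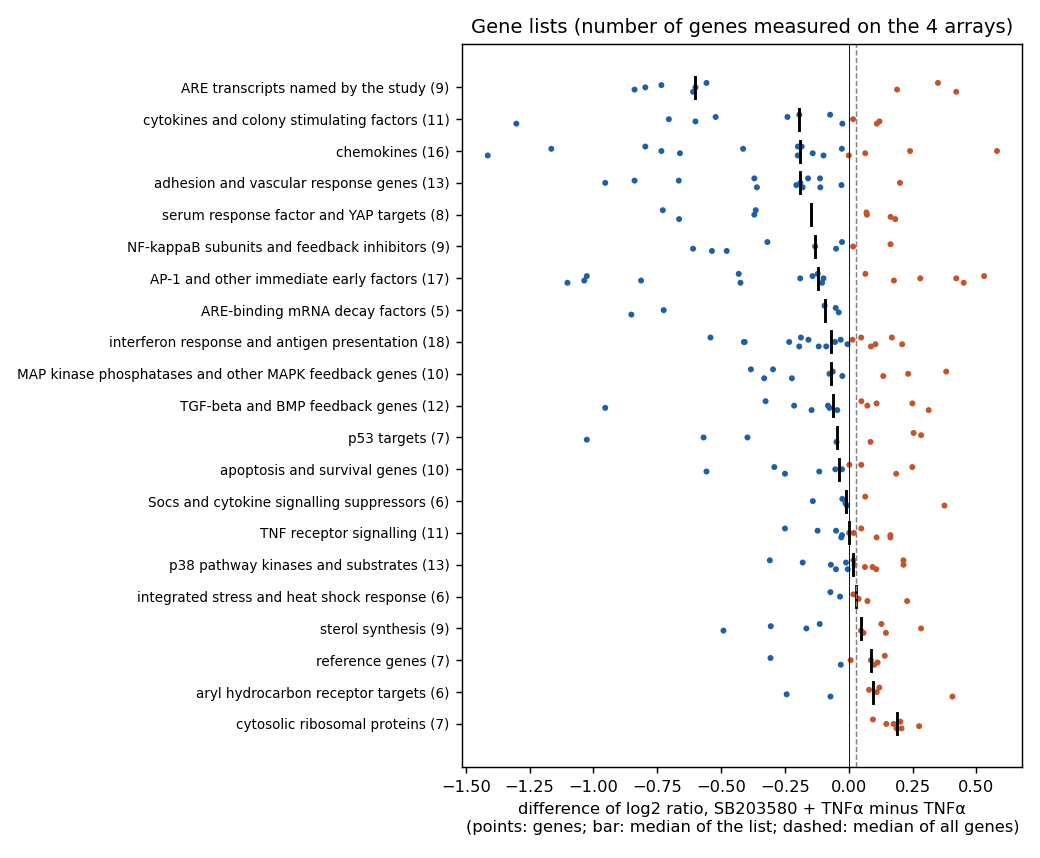
Difference of log2 ratio (SB203580 with TNFα minus TNFα alone, x axis) of each measured gene in 21 gene lists, with the number measured in brackets, a bar at each list's median and a dashed line at the median of all genes, 0.03. The medians run from −0.60 for the ARE transcripts to 0.19 for ribosomal proteins, and points of most lists lie on both sides of 0.

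The genes with the largest higher levels with SB203580 were chosen by a difference from which the TNFα ratio is subtracted. Low TNFα ratios are favoured by that choice and are not a result. Arrdc3, an arrestin domain protein gene, read −0.24 and −0.18 with TNFα and 1.5 and 1.51 with SB203580, without overlap, for a difference of 1.71 ± 0.44 (SE, unadjusted p = 0.00185, adjusted p = 1). On SB203580 alone it read 2.79 and 0.93. Cbx8, a Polycomb protein gene, read −0.44 and 0.22 against 0.72 and 1.22, and 1.62 and 0.86 with SB203580 alone. Rab3a, a GTPase gene of regulated secretion, read −0.23 and 0.40 against 0.89 and 1.05, and 1.79 and 1.42 with SB203580 alone.

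The other genes among the 12 largest on this side were C530015C18 (now Zfp12, difference 0.79), Nol3 (0.95), Ldh3 (now Ldhc, 0.92), AU021768 (0.92), Moxd1 (0.91), Chst10 (0.84), A730028G07Rik (now Cklf, 0.82), 4930517K11Rik (now Rpl39l, 0.82) and 4933400F03Rik (now Kcnmb4os2, 0.82). Zfp12 had the smallest unadjusted p of these, 0.000696, with 0.79 in each pair. Nol3 came to 0.36 with the same probes and 0.21 with outlier spots kept. Ldh3 was not well above background on either TNFα array. Its fold is only bounded, at 1.27 or more, without an error and in a gene chosen for its rise. No gene of these 12 passed the adjusted threshold.

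On the lower side, the 12 largest genes included Ch25h, Adamts1, Ccl20, Hs3st1, Fosl1, Cxcl5 and Btg1, given above, and Gm591, 0610037L18Rik, 2900011G08Rik and Olfr1008. Gm591 read 0.44 and 0.31 with TNFα and −0.83 and −0.60 with SB203580 (difference −1.09 ± 0.19 SE, adjusted p = 0.254). For 0610037L18Rik the difference was −1.09, and for Olfr1008 it was −0.80. 2900011G08Rik was not well above background on either SB203580 array. Its fold is only bounded, at 1.33 or more, without an error and in a gene chosen for its fall. Epha2, an ephrin receptor, had TNFα ratios of 1.89 and 1.48 and a difference of −0.64. Olfr1015, an olfactory receptor gene, had TNFα ratios of 5.69 and 4.99 and a difference of −0.65. Olfr1015 was read by 1 probe, and whether that probe detects this gene was not tested.

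Dim probes gave larger ratios with less behind them. Slc9a3 read 3.34 and 2.38 with TNFα and 1.31 and 0.31 with SB203580, a difference of −2.05 (adjusted p = 0.189), but was well above background on only 1 TNFα array and on neither array of SB203580 with TNFα, and came to −0.12 under another background correction. Gsc read 1.23 and 1.98 against 0.00 and 0.06 and was well above background on 1 TNFα array. Gdf10 and Cxcl9 were not well above background on any of the 4 arrays.

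To describe TNFα genes without choosing them on the arrays compared, genes were taken that TNFα raised at least 2.5-fold in both pairs of p38α-/- arrays. Of 14 such genes 10 were measured, and 8 of them (80%) were lower and 1 higher in both pairs, where 21.7% of all genes were lower. The median difference was −0.69, with −0.48 in pair 1 and −0.84 in pair 2, and it was −0.32 without SB203580 with TNFα array 2 and −0.36 without TNFα array 1. The lower ones included Btg2, Ccl20, Cxcl10, Gadd45b, Olfr1015, Tnfaip3 and Zfp36, Jun was the higher one, and Map3k8 differed in sign between the pairs. With outlier spots kept there were 18 such genes, of which 13 (72.2%) were lower and 2 higher, with a median of −0.58 and a share of 18% lower over all genes.

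The same was read with genes raised 2.5-fold on 1 wild type TNFα array and the difference taken from the other pair. For 206 genes chosen on array 1, 182 were measured in pair 2, with a median of −0.16 and 104 (57.1%) lower, beside 41.9% of all genes. For 71 genes chosen on array 2, 70 were measured in pair 1, with a median of −0.33 and 50 (71.4%) lower, beside 46.5% of all genes. The first median was −0.53 with another background correction, −0.41 in the series matrix and −0.37 with probes well above background, and the second was −0.15 with a 2-fold choice. All of these medians lay on the lower side. At least 2-fold lower were 17 and 5 genes of these lists, beside 80 of 14669 genes in pair 2 and 67 of 19081 in pair 1. Higher were 55 genes of the first list and 16 of the second. The rest had a difference of exactly 0, the value that surrogates for dim signals give, so some genes chosen at 2.5-fold were dim.

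**Figure D5:**
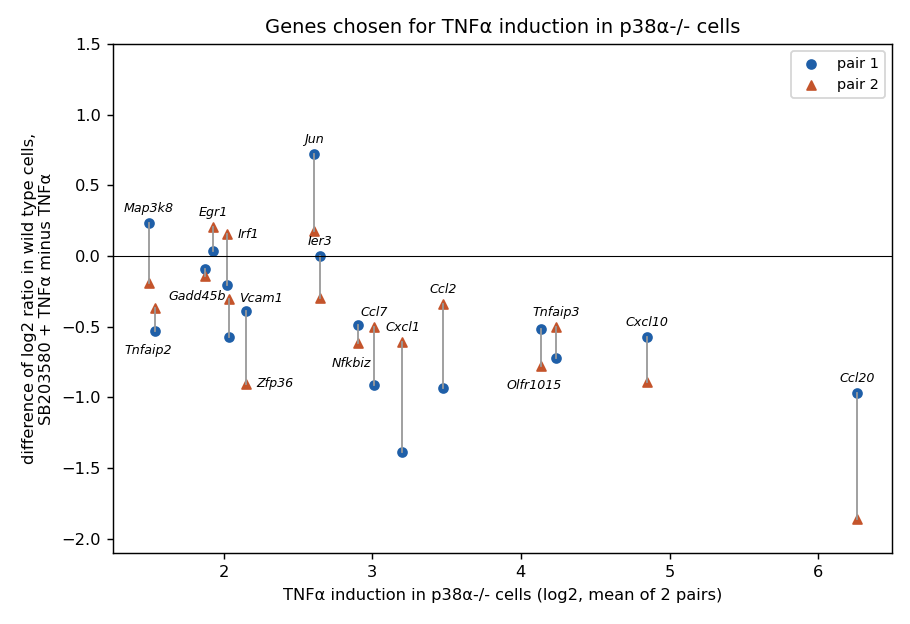
TNFα induction in p38α-/- MEFs (mean log2 of 2 pairs, x axis) against the difference of log2 ratio in wild type MEFs (SB203580 with TNFα minus TNFα alone, y axis) for 17 of the 18 genes raised at least 2.5-fold in both p38α-/- pairs with outlier spots kept, with circles for pair 1 and triangles for pair 2 joined by a line. Below 0 in both pairs lie 12 of these 17, with Ccl20 lowest in pair 2 at −1.86, and Jun and Egr1 lie above 0 in both.

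On the arrays of SB203580 alone 3028 genes stood above and 2354 below the pool, of 15204, at an adjusted p of 0.05 in limma. No untreated wild type RNA was run in Cy5, so any dye and pool offsets are part of these counts. The difference with TNFα was also set against this ratio of SB203580 alone to the pool. That contrast was called for 359 of 13369 genes (2.69%). Of these 175 were higher and 184 lower with TNFα than the ratio of SB203580 alone would give. The pool and any dye bias do not drop out of this contrast, and both sides share the pool. Among the 184 the median difference with TNFα was −0.17 and the median ratio of SB203580 alone 0.88, and among the 175 they were 0.19 and −0.87. TNFα alone was called above the pool in 154 of the 184 and below it in 160 of the 175. Its median ratios in the same genes were 0.66 and −0.72. The count was 50 without the replicate block, 0 when only the arrays involved were fitted, 0 with trend and robust variances, and from 4 (without pair 2) to 78 (without TNFα array 1) when single arrays or pairs were left out. It went up to 729 with probes well above background (289 higher and 440 lower), 812 with another background correction (262 and 550), 3569 with outlier spots kept (2760 and 809) and 3683 in the series matrix (2015 and 1668), so that neither the number nor the split by direction was stable.

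Among the genes already named, this contrast was −2.05 for Cxcl10, −1.90 for Ccl20, −1.68 for Cxcl3, −1.29 for Hs3st1, −1.15 for Ch25h, −1.03 for Tslp and −0.93 for Zfp36l1, with adjusted p-values of 0.00613 to 0.0449. For Ch25h, SB203580 alone read 0.02 and −0.19, so that most of its value comes from the TNFα arrays. For Fos the contrast of −2.44 (adjusted p = 0.0375) comes from SB203580 alone at 2.40 and 2.25, with a difference of −0.12 in TNFα-treated MEFs. For Adamts1 the contrast was −0.27 and for Arrdc3 −0.14 (adjusted p = 0.708 and 0.904).

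Whether SB203580 acted differently on TNFα than on other stimuli of the same length was tested with arrays that none of the effects share. Against anisomycin 0 of 13170 genes (0%) differed at an adjusted p of 0.05 in limma, with 145 higher and 170 lower at an unadjusted p under 0.05. Against NaCl 0 of 11501 genes (0%) differed, with 212 and 198 at an unadjusted p under 0.05. SB203580 itself lowered 5 of 14699 genes with anisomycin, namely Btg2 (log2 difference −3.26), the MAPK feedback gene Spry4 (−2.36), Egr1 (−2.19), the choline kinase gene Chka (−1.14) and Zcchc3 (−0.93). With NaCl it changed 0 of 12180 at that threshold (292 higher and 305 lower at an unadjusted p under 0.05).

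Values side by side show where the effects were alike in size and where they were not. Ccl20 gave paired differences of −1.20 and −1.23 with anisomycin, where its ratios were only 1.76 and 1.29, and −0.44 and −0.07 with NaCl. Adamts1 gave −1.07 and −1.17 with anisomycin and −1.14 and −0.66 with NaCl. Ch25h had a difference between effects of −1.23 against anisomycin (unadjusted p = 9.04e-05, adjusted p = 0.844). Btg2 gave −2.72 and −3.79 with anisomycin and −0.44 and −1.61 with TNFα, a difference between effects of 2.23 (unadjusted p = 0.00129, adjusted p = 1). The difference for Btg2 with outlier spots kept was 1.89 and passed the threshold (adjusted p = 0.0142), while those for Zfp36 (1.90), Egr1 (2.31) and Atf3 (1.48) did not (adjusted p = 0.409, 0.613 and 0.383). Jun gave −1.0 and −1.07 with anisomycin, where its ratios were 6.21 and 5.85, and 0.72 and 0.18 with TNFα, a difference between effects of 1.49 (unadjusted p = 0.00491, adjusted p = 1). Cxcl5 was listed at a ratio of 0 on all anisomycin and NaCl arrays, which is the surrogate for a dim signal.

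The cells were checked against marker genes fixed for the analysis. Of 7 measured fibroblast markers 2 were lower and 1 higher in both pairs, with a median of 0.00. Among 7 macrophage markers 4 were lower and 0 higher, with differences from −0.14 to −0.01. Over all genes 21.7% were lower and 34.3% higher. All measured fibroblast and macrophage markers were well above background on the 4 arrays, so that flag does not separate the cell types on this platform. Epithelial, endothelial, T and B cell and pluripotent markers had medians from −0.12 to 0.02. Their part in the results was not tested.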

How the data were processed

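RNA from MEFs was amplified in 2 rounds and hybridised to Agilent whole mouse genome arrays with 2 colours. The authors deposited scanner output of Agilent Feature Extraction (version 8.1.1.1 per the file headers, 9.1 in the submitters' processing notes). Per the file headers, its log10 ratios of Cy5 over Cy3 came from processed intensities after spatial detrending, linear and LOWESS dye normalisation and replacement of dim signals by surrogates. Spot and background intensities were also deposited by the authors and served for an alternative background correction (normexp, offset 50). A table that the authors deposited as the series matrix held log2 ratios, a scale judged from its values, with column medians between −0.06 and 0.03. It was used as an alternative, and how it was made is not given in the sources used here. Every sample had a column, and 0 columns without a sample were used.

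Log10 ratios were turned into log2 ratios, control spots and outlier spots were left out, and spots were averaged by probe and probes by gene, which gave 33453 named probes of 41174 and 21689 genes. Gene names are those of the array. RefSeq matched 15739 by accession, 2277 by synonym and 1933 by symbol, and 1740 were unmatched. A mean over the probes left on an array can differ from that of another array, so results that changed were also read with the same probes on all 4 arrays. Where a probe was an outlier on a needed array the gene counts as not measured, and values with outlier spots kept are named as such.

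limma 3.58.1 (lmFit and eBayes, R 4.3.3) was fitted over the 11 wild type groups with the replicate number as a block, with Benjamini-Hochberg adjustment over all genes measured on the arrays of a contrast and a threshold of 0.05. All p-values in the report are two-sided limma p-values, and called means past that threshold. Replicate numbers paired the samples in a check of deviations from group means, which correlated between same-numbered arrays at over 0.1 in 55 of 55 pairs of groups (0.133 to 0.645). The fit was also run on simulated data with independent noise per array and an additive shift between replicates, as the model assumes. That run cannot show how the fit behaves with error shared between arrays. The number of arrays limits the precision.

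Genes were named by rule as those past the threshold, the 12 largest higher and 12 largest lower by the smaller paired difference with a bright signal in the higher group, members of gene lists, Mapk14 and genes the study names for TNFα, and the 20 with the largest TNFα induction in p38α-/- arrays. Slc9a3, Gsc, Defb12, B130011D17Rik, Chka and Zcchc3 were named after their values were seen. The comparison, the members and the lists were chosen with earlier results of these data known. An "at least" fold sets the brighter group's mean against the higher of the dim signal and the lowest signal well above background. It has no error and describes genes chosen by the size of their difference. Alternatives changed the block, arrays fitted, background correction, source table, spot and probe filters and variance model, and left out each array and each pair. A gene that the rule names is not reported here.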

Additional observations from a re-analysis of the deposited data

Results flagged for a closer look

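The difference with SB203580 in TNFα-treated MEFs departed from the ratio of SB203580 alone to the pool for 359 genes. This was a test of the contrast itself in limma, at an adjusted p of 0.05. The pool and any dye bias stay in this contrast. The count was 0 with only the arrays involved, 0 with trend and robust variances and 4 to 78 without single arrays or pairs. SB203580 alone was itself called in the opposite direction in 174 of the 175 higher and 175 of the 184 lower genes, and its values enter the contrast. For Cxcl10, 1.32 of the difference is the mean ratio of SB203580 alone. For the genes below that ratio is subtracted as well, so their values need not equal the differences in TNFα-treated MEFs. Among the genes named here the difference between the effects, on the log2 scale, was −1.15 for Ch25h, −1.90 for Ccl20, −1.29 for Hs3st1, −0.99 for Gm591 and −1.67 for Btg1, whose probes differed between the arrays (its difference of −0.81 with TNFα was −0.24 with the same probes). It was −1.68 for Gm1960 (Cxcl3), −2.05 for Cxcl10, −1.03 for Tslp, −0.93 for Zfp36l1 and −1.47 for H2-K1. For Fos it was −2.44, with SB203580 alone at 2.40 and 2.25. For Slc9a3, which was dim on most arrays, it was −2.05. Groups of 2 arrays are too small for a test of single outlying arrays.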

How the results depend on the processing

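The comparison of SB203580 with TNFα against TNFα alone called 1 gene with the replicate block. It called 0 with no replicate block, 0 with the fit limited to its own arrays, 4 in the series matrix (Ch25h, Ier2, Ptx3 and Sdc4, all lower), 2 with trend and robust variances (Ch25h and C130098D09) and from 0 to 8 without single arrays or pairs. The 8 came without SB203580 with TNFα array 1, 5 without pair 1, 2 without TNFα array 2, and 0 in the other cases. Ch25h was lower throughout, by −1.47 to −1.0, with adjusted p-values from 0.000686 to 0.714 and a call in 11 of 17 settings. It lost its call with no replicate block (0.264), with its own arrays only (0.714), without SB203580 with TNFα array 2 (0.331, difference −1.11), without TNFα array 1 (0.228) and without pair 1 or pair 2 (0.104 each).

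The 359 genes of the contrast with SB203580 alone became 50 with no replicate block, 0 with their own arrays only, 812 with normexp (262 higher, 550 lower), 3683 in the series matrix (2015 and 1668), 3569 with outlier spots kept (2760 and 809), 729 with probes well above background (289 and 440), 0 with trend and robust variances and 4 (without pair 2) to 78 (without TNFα array 1) when single arrays or pairs were left out. The causes of these changes were not tested. Against anisomycin the count of 0 became 1 with normexp (Ch25h) and 1 with outlier spots kept (Btg2), and against NaCl 1 with normexp (Ch25h), and both were 4 without SB203580 with TNFα array 1, 2 without pair 1 and 0 in the other cases. The 8 genes of 2-fold in both pairs became 2 with normexp, 4 with probes well above background, 71 at 1.5-fold, and 138 and 142 in pair 2 and pair 1 alone.

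The median of −0.69 for genes chosen in p38α-/- MEFs was −0.41 with a 2-fold choice and −0.85 to −0.32 without single arrays or pairs, with −0.32 without SB203580 with TNFα array 2 and −0.36 without TNFα array 1. The median of −0.16 for genes chosen on array 1 was −0.53 with normexp, −0.41 in the series matrix and −0.37 with probes well above background, and that of −0.33 for genes chosen on array 2 was −0.15 with a 2-fold choice. These lists use 1 array for the choice and the other pair for the reading, so no array could be left out.

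Of 68 genes named, 65 kept their direction in every setting run. Vcam1 reversed to −0.47 in the series matrix, −0.44 with outlier spots kept, −0.044 with probes well above background and with the same probes, and ran from −0.97 to 1.37 without single arrays or pairs. Gadd45b ran from −0.26 to 0.026 and Map3k8 from −0.25 to 0.30. Alternatives other than those of the variants fixed at the start, such as the same probes on all 4 arrays, were chosen after seeing the data.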
